A study of Mus musculus with 6 samples.

Results

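The major urinary protein (Mup) genes were examined in liver of mice that lack profilin 2 and of wild-type mice, as all rows of the expression table whose annotation holds a symbol made of Mup and a number. The rule gave 7 of 34390 rows. Mup3, Mup5, Mup6, Mup20 and Mup21 had 5 rows with a single symbol, and the other 2 rows named 4 genes each. One shared row named Mup9, Mup16, Mup19 and Mup22 and is called the Mup9-set row, and the other named Mup10, Mup11, Mup18 and Mup22 and is called the Mup10-set row. Mup22 was in both. The rows thus named 12 of the 22 numbered Mup genes of the reference gene table, and 10 genes of the family were named by no row.

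The series held 6 Affymetrix arrays of total RNA from whole liver, 3 of wild-type and 3 of Pfn2-/- animals, all of strain C57BL/6 and with no treatment listed. The labels call the arrays of a genotype independent biological replicates. In either genotype, replicates 1, 2 and 3 were 9, 8.5 and 8 months old. The labels do not say how the Pfn2 allele was made, in which cells it is lost, or the sex of the animals. In all 6 arrays the Y-linked gene Kdm5d lay at 6.19 to 6.67 and Xist, the RNA of the inactive X chromosome, at 3.28 to 3.85, where the median of all row means was 4.38. Array medians were 4.36 to 4.41. Pfn2 itself was dim in both genotypes, with log2 values of 3.85 to 4.09 in wild type and 3.81 to 3.93 in Pfn2-/- liver. The tissue label was checked with 12 hepatocyte genes, whose mean was 11.45 to 11.60 in wild type and 11.46 to 11.48 in Pfn2-/- arrays.

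Major urinary proteins are small secreted lipocalins, barrel-shaped carriers of hydrophobic molecules. Mouse hepatocytes release them into blood, the kidney passes them into urine, and there they bind and slowly release volatile pheromones or act as scent signals themselves. Their transcription in liver is higher in males, because it depends on the pulsed pattern of growth hormone that acts through its receptor, JAK2 and STAT5b, and it also needs thyroid hormone, glucocorticoid and androgen. The genes form 1 cluster. Its edges hold the diverged members Mup3, Mup4, Mup5, Mup6, Mup20 and Mup21, and its centre holds near-identical copies, whose transcripts can hybridise to each other's probes.

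The likeness of the copies is shown by their promoters. Of the 22 numbered Mup genes, 14 had a promoter window in the RefSeq-derived table (build GRCm38.p6), which runs from 250 bases before to 50 bases after the annotated start. The windows below belong to 3 genes with a row of their own (Mup3, Mup21 and Mup6) and to 1 gene of each shared row (Mup9 and Mup10), so that the edge members can be read against the central copies. Capitals mark ATCAAT, the core bound by Onecut factors such as HNF6, and the box TATATAA, which helps to set the start of transcription.
Mup3, chr4:62087268-62087567, minus strand: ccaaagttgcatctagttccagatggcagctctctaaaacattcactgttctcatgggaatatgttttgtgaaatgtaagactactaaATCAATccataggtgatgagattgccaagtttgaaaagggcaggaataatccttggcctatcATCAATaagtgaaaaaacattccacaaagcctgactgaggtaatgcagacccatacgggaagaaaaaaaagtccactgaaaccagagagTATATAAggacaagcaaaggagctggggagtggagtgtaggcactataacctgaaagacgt
Mup21, chr4:62150792-62151091, minus strand: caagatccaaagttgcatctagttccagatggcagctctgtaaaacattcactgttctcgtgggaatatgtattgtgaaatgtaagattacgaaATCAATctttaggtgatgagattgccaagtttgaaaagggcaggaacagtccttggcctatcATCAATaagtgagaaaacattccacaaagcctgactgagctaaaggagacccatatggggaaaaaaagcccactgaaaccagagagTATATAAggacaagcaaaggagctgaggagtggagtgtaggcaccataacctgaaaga
Mup6, chr4:60003231-60003530, plus strand: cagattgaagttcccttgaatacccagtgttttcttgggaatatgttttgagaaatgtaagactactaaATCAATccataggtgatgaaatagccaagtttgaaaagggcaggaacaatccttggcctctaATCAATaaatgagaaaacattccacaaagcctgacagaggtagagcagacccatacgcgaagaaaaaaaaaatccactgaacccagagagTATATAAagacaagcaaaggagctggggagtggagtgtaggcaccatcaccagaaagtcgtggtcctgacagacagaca
Mup9, chr4:60421903-60422202, minus strand: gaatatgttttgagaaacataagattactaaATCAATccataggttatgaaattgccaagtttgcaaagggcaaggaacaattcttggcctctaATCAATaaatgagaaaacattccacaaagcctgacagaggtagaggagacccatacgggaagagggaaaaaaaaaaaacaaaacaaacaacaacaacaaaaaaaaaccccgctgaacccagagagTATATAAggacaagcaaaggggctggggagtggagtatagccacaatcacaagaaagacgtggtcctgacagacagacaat
Mup10, chr4:60582106-60582405, minus strand: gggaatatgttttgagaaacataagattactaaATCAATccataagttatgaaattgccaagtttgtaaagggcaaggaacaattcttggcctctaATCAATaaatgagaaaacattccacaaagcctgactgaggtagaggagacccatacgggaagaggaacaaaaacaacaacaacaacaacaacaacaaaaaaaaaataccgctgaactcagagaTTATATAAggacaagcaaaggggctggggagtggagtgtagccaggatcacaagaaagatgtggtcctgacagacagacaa

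Over all 91 pairs of the 14 windows, the identity of aligned bases was 83.3% to 100% with a median of 93.4%. Mup3 and Mup21 were 93.9% identical over 294 aligned bases, Mup3 and Mup6 89% over 281, and Mup21 and Mup6 85.5% over 275. Mup9 and Mup19, which share an array row, were 99% identical, and Mup9 and Mup10, which lie in different rows, 94.6%. Identity did not follow the array rows. Mup10 and Mup18, which share a row, were 93.4% identical, and Mup11 and Mup19, which lie in different rows, 99.3%. Each motif was searched on both strands. ATCAAT occurred 2 times in every one of the 14 windows, where 0.694% of all 32851 promoter windows held 2 or more copies and 7.54% held at least 1. TATATAA occurred in 13 of 14 against 3.24% of all windows (in the Mup10 window its matches on the 2 strands overlap). The copies of ATCAAT started 62 bases apart in 4 windows, those of Mup3, Mup4, Mup6 and Mup21, and 63 bases apart in the other 10. TTCNNNGAA, the pattern that STAT dimers bind, was in 0 of 14 windows and 8.3% of all, and TTGCNNAA, a relaxed C/EBP core, in 0 of 14 and 10.8% of all. The absence says only that these letters are not in this window. The 14 windows are so alike that none of these counts rests on 14 independent promoters.

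**Figure D1:**
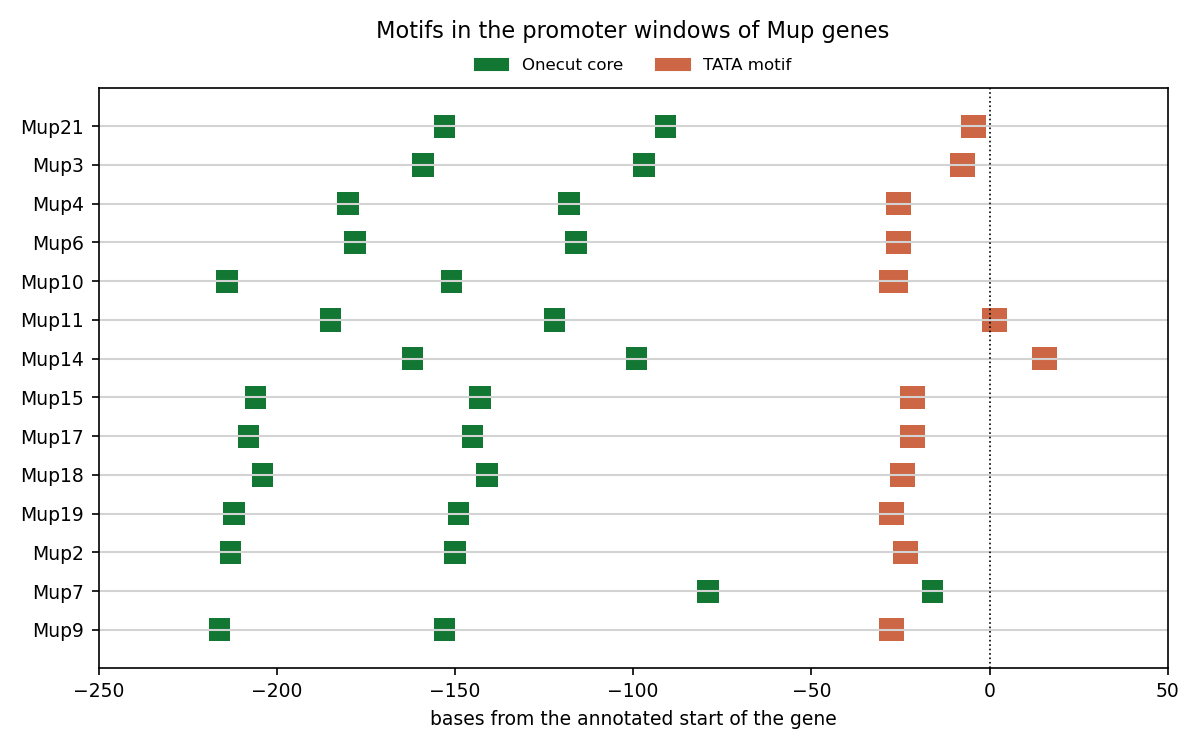
Positions of the Onecut core ATCAAT (green) and of TATATAA (orange) in the 14 Mup promoter windows, in bases from the annotated start of each gene (dotted line). The 2 cores lie 62 or 63 bases apart in every window. The TATA motif starts between 31 bases before and 12 bases after the annotated start, and 86 to 126 bases after the start of the second core. It has no match in the Mup7 window, where the second core starts at -19. A motif at such a distance would lie past the end of that window.

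The comparison asked how Mup expression differs between livers with and without profilin 2. Values are RMA expression on the log2 scale, differences are Pfn2-/- minus wild type from 3 arrays per group, and the standard error (SE) and 95% confidence interval come from limma. No Mup row passed a Benjamini-Hochberg adjusted p of 0.05 in limma over all rows, as 0 of 34390 rows (0%) did. The 2 shared rows and Mup21 and Mup6 lay higher in Pfn2-/- liver, by 0.59 to 0.95, with unadjusted p of 0.00665 to 0.0128. Mup3, Mup20 and Mup5 had smaller differences of 0.05, 0.17 and -0.33. In all, 6 rows had a higher and 1 a lower mean in Pfn2-/- liver (5 and 2 after cyclic loess or without wild-type replicate 2, where Mup3 turned).

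The Mup9-set row had the largest difference. It read 9.04, 8.82 and 9.02 in wild type replicates 1, 2 and 3, and 10.27, 9.10 and 10.35 in the Pfn2-/- replicates. Replicates 1 and 3 of the Pfn2-/- group stood high and close together, while replicate 2 lay just above the highest wild-type array, so the groups did not overlap. The difference was 0.95 (SE 0.29, interval 0.29 to 1.60, adjusted p = 0.898), or 1.93-fold on the linear scale. The spread in the Pfn2-/- group was 0.70 (SD, n = 3) against 0.12 in wild type. Without Pfn2-/- replicate 2 the difference was 1.35 (adjusted p = 0.064), and without Pfn2-/- replicate 1 or 3 it was 0.77 (0.99) or 0.73 (0.895).

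The Mup10-set row, also of central copies, read 9.31, 8.81 and 9.53 in wild type and 9.93, 9.59 and 9.90 in Pfn2-/- liver. Here the scatter lay in wild type, whose replicate 2 was the lowest of the 6 arrays, and the groups were apart by a narrow gap. The difference was 0.59 (SE 0.19, interval 0.16 to 1.02, adjusted p = 0.906). Without wild-type replicate 2 it was 0.39 (adjusted p = 0.999).

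Mup21, an edge member of the cluster, read 7.75, 7.12 and 7.25 in wild type and 8.21, 7.69 and 8.14 in Pfn2-/- liver. Wild-type replicate 1 lay above Pfn2-/- replicate 2, so the groups overlapped. The difference was 0.64 (SE 0.20, interval 0.19 to 1.09, adjusted p = 0.898), or 1.56-fold. It ranged from 0.51 to 0.83 when single arrays were left out.

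Mup6 was dim. Its row read 3.03, 3.15 and 3.54 in wild type and 4.17, 3.69 and 3.74 in Pfn2-/- liver, where the lower quartile of the arrays was 3.51 to 3.57. The groups did not overlap, and the difference was 0.63 (SE 0.18, adjusted p = 0.891). No fold is given, since wild-type values lay at or below that quartile.

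Mup20, the gene of darcin, a male pheromone protein that attracts females, was among the brightest rows of the table, with only 53 of 34390 rows of higher mean. It read 12.38, 12.23 and 12.55 in wild type and 12.51, 12.50 and 12.65 in Pfn2-/- liver. The groups overlapped and the difference was 0.17 (SE 0.13, interval -0.13 to 0.46, adjusted p = 0.958). Without wild-type replicate 2 it was 0.09.

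Mup3 was brighter still, with 14 rows of higher mean, and read 13.04, 12.84 and 13.14 in wild type and 13.10, 13.07 and 13.00 in Pfn2-/- liver. The wild-type values spanned the whole Pfn2-/- range. The difference was 0.05 (SE 0.13, interval -0.24 to 0.34, adjusted p = 0.993), and it was -0.01 after cyclic loess and -0.03 without wild-type replicate 2. The highest value in the table was 13.56, and whether differences are compressed this close to it was not tested.

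Mup5, known from salivary and lacrimal glands more than from liver, was dim as well. It read 3.77, 3.43 and 3.58 in wild type and 3.69, 2.83 and 3.27 in Pfn2-/- liver. The groups overlapped and the difference was -0.33 (SE 0.21, interval -0.80 to 0.14, adjusted p = 0.958). Without Pfn2-/- replicate 2, its lowest array, the difference was -0.11, and without Pfn2-/- replicate 1 it was -0.54 (adjusted p = 0.99). The mean of 7 salivary and lacrimal gland markers was 3.96 to 4.12 in wild type and 3.79 to 4.03 in Pfn2-/- arrays, below the median of all rows.

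**Figure D2:**
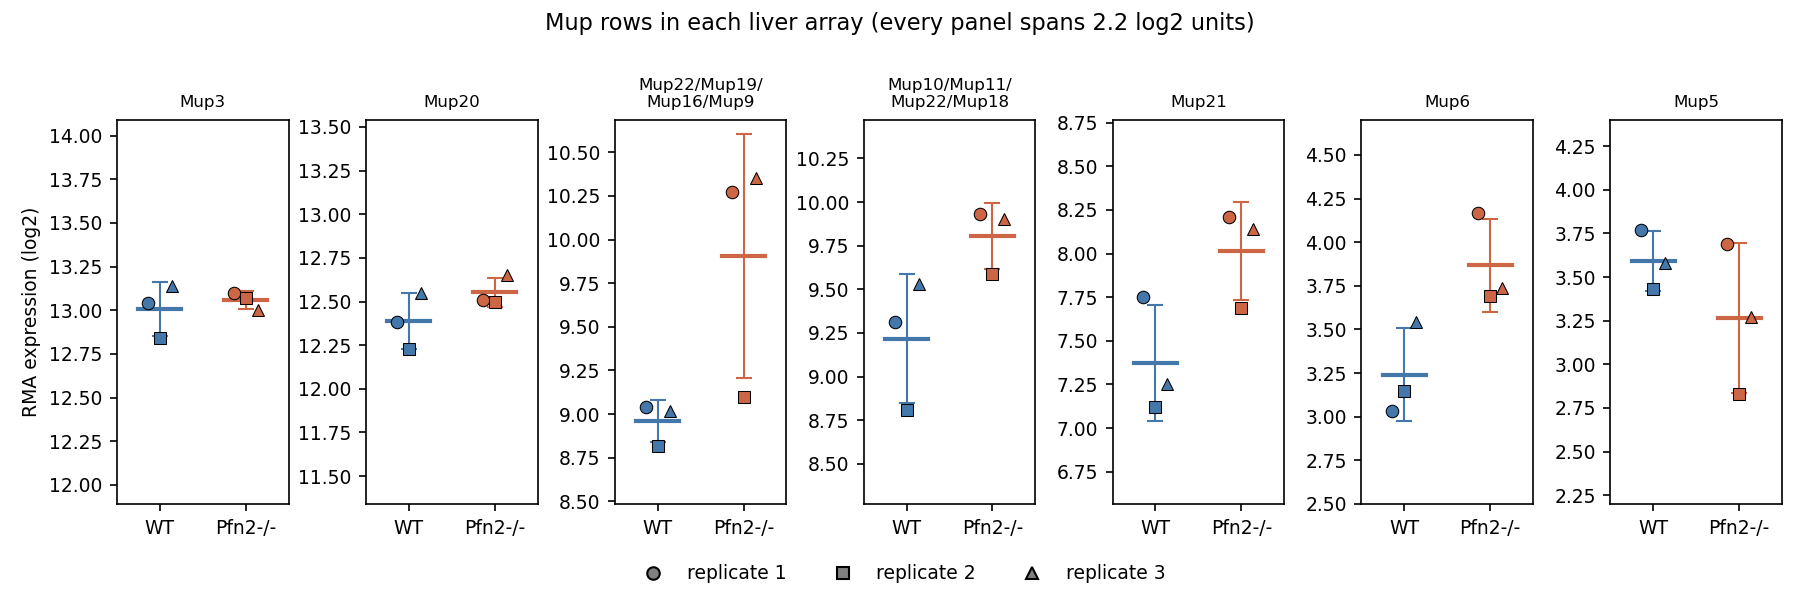
RMA expression (log2) of the 7 Mup rows in each array, wild type (WT, blue) and Pfn2-/- (orange). Symbols mark the replicate, horizontal lines the group mean and bars 1 SD (n = 3), and every panel has the same height in log2 units. The Mup9-set, Mup10-set and Mup6 rows do not overlap between genotypes, Mup21 overlaps by 1 array, and the values of Mup3 and Mup20 overlap.

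Counts over the family read against the table as follows. The groups did not overlap, with Pfn2-/- higher, in 3 of 7 Mup rows and in 5.19% of all rows, and with Pfn2-/- lower in 0 of 7 and in 4.52%. At an unadjusted p under 0.05 there were 4 of 7 Mup rows with higher and 0 with lower values, against 2.84% and 2.44% of all rows. The median difference was 0.59 over the 7 Mup rows and 0.003 over all rows. It was 0.39 without wild-type replicate 2, and 0.17 when the shared rows were left out with the other rows that do not stand for 1 gene. The rows share animals, and near-identical transcripts can reach several of them, so they are not independent.

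**Figure D3:**
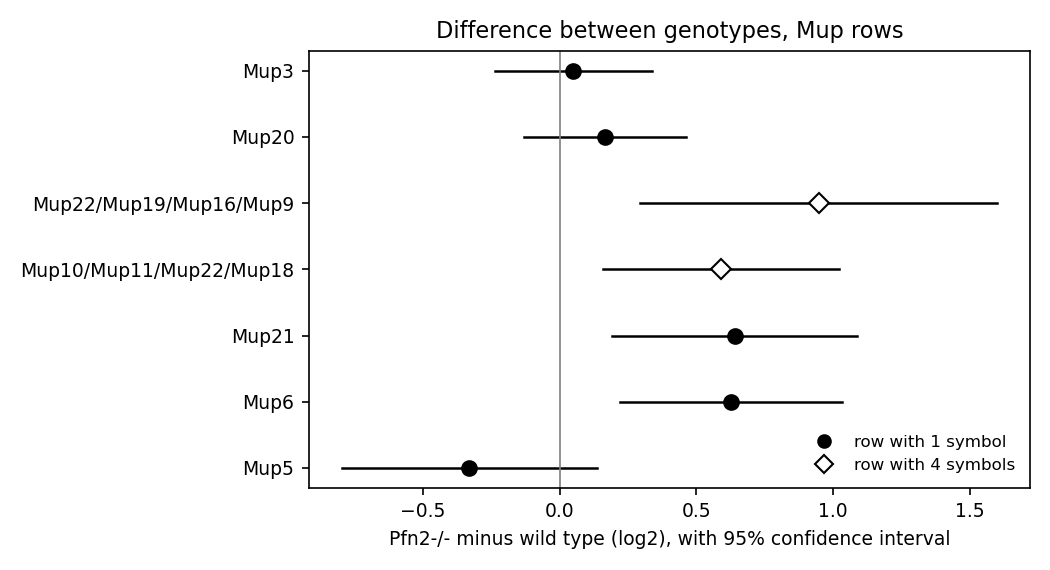
Difference between genotypes (Pfn2-/- minus wild type, log2) for each Mup row, with the 95% confidence interval of limma (3 arrays per group). Filled circles are rows with 1 symbol and open diamonds rows with 4. The intervals of both shared rows, Mup21 and Mup6 lie above 0 before adjustment, and those of Mup3, which is at -0.01 after cyclic loess, Mup20 and Mup5 include 0.

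To compare the size of the difference among members, differences between rows were taken within each array and compared between genotypes by an exact permutation test, two-sided, over 21 pairs of rows. With 3 arrays against 3 the smallest p it can give is 0.1, and the smallest after Benjamini-Hochberg adjustment was 0.233, so no pair could pass. The exact p was at this minimum of 0.1 in 9 of the 21 pairs. The Mup9-set row minus Mup3 was -4.0, -4.02 and -4.12 in wild type and -2.83, -3.97 and -2.65 in Pfn2-/- liver. The difference was 0.90, and the groups were apart only by the narrow gap between -4.0 and -3.97 (exact p = 0.1). Against Mup20, the other bright member, the Mup9-set row differed by 0.78 with overlapping groups (exact p = 0.2). The Mup10-set row minus Mup20 differed by 0.42 with groups apart (exact p = 0.1). Mup3 lies near the top of the table's range, and whether a limit on its signal has a part in these differences was not tested. The Mup10-set row minus Mup3 was -3.73, -4.03 and -3.61 against -3.17, -3.48 and -3.10, a difference of 0.54 (exact p = 0.1). Mup3 minus Mup21 differed by -0.59 with overlapping groups (exact p = 0.2).

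The low array of each genotype was mostly the same across members. Replicate 2 was the lowest wild-type array in 6 of 7 rows, all but Mup6, and replicate 2 was also the lowest Pfn2-/- array in 6 of 7, all but Mup3. The mean of the 7 rows, each centred on its own average, was -0.12, -0.39 and -0.07 in wild type and 0.39, -0.09 and 0.28 in Pfn2-/- liver. By this mean Pfn2-/- replicate 2 lay within the wild-type range and the other Pfn2-/- arrays above it. By the median of the 7 centred rows, Pfn2-/- replicate 2, at 0.03, lay just above the highest wild-type array, at 0.02.

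**Figure D4:**
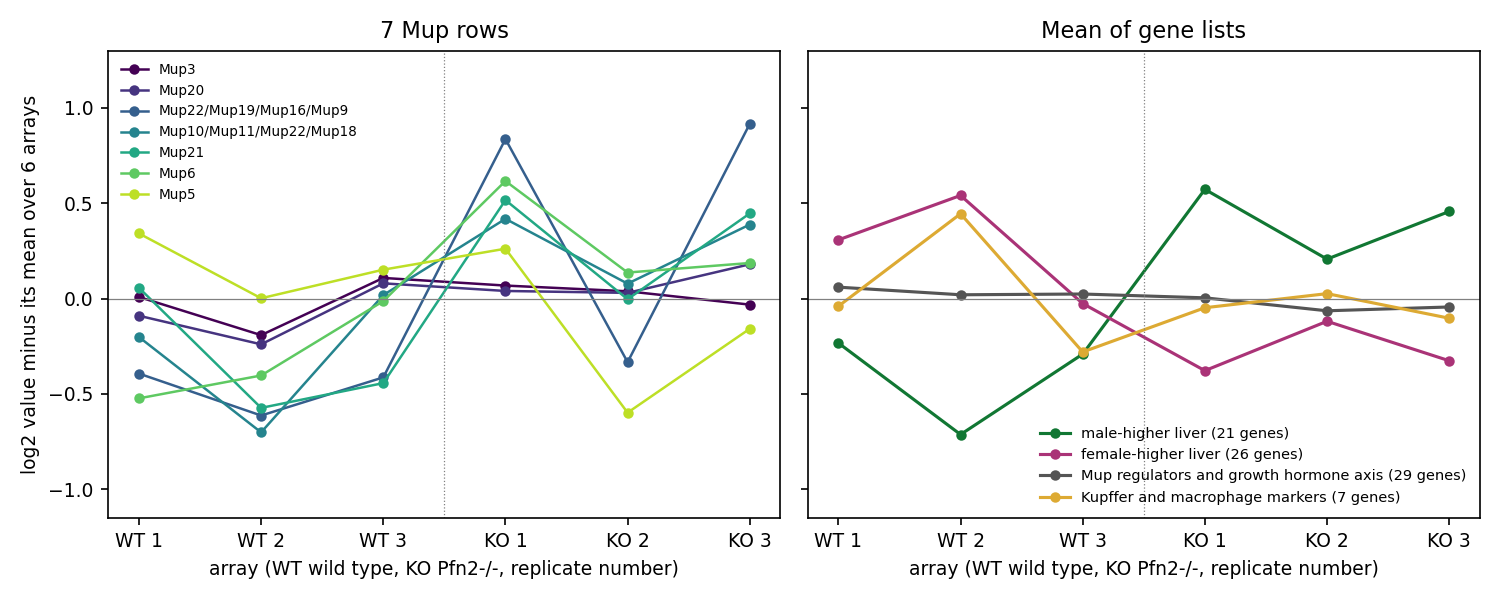
Log2 values of the 7 Mup rows (left) and means of 4 gene lists (right), each centred on its own mean over the 6 arrays (WT wild type, KO Pfn2-/-, with the replicate number); lines only link the points of a row or list. Wild-type replicate 2 is the lowest wild-type array in 6 of the 7 Mup rows and in the list of male-higher genes (-0.71), and the highest array in the macrophage list (0.45).

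Wild-type replicate 2 stood apart in other genes too. Its centred mean was 0.45 for 7 macrophage markers, where the other arrays had -0.28 to 0.03. For 6 lymphocyte markers it was 0.37 against -0.20 to 0.03, and for 7 endothelial markers 0.29 against -0.17 to 0.14. The part of these cells in its low Mup values was not tested. In bulk liver, fewer hepatocytes and less Mup RNA per hepatocyte cannot be told apart. The hepatocyte markers were not lower in that array (0.10 against -0.06 to 0.06), and 0 of 12 had an unadjusted p under 0.05 between genotypes. Between genotypes, 0 of 7 macrophage and 0 of 7 endothelial markers had such a p. Of 6 cholangiocyte markers 2 did, Sox9 (0.58) and the dim Cftr (0.33), both higher, against 2.84% of all rows. The other cholangiocyte markers had intervals that included 0, with Krt19 at 0.05, Krt7 at 0.02, Epcam at -0.10 and Muc1 at 0.17.

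Pfn2-/- replicates 1 and 3, with the high values of the Mup9-set row, also had high values of the acute-phase genes Saa2, Lcn2 and Orm2. Saa2, a serum amyloid gene induced in inflammation, read 10.83 and 12.22 there and 7.31 in Pfn2-/- replicate 2, against 6.76 to 7.80 in wild type. Lcn2 and Orm2, members of the lipocalin family like the Mup genes, had the same order of the Pfn2-/- arrays. Lcn2 read 8.06, 6.81 and 9.15 in Pfn2-/- replicates 1, 2 and 3 and 6.65 to 7.07 in wild type, and Orm2 9.58, 6.44 and 10.09 against 6.75 to 7.42. The acute-phase gene Hp read 12.05, 11.96 and 12.12 in Pfn2-/- replicates 1, 2 and 3 and 11.70 to 11.92 in wild type. For Hp, Pfn2-/- replicate 2 too lay above every wild-type array. The part of an acute-phase state in the Mup values was not tested.

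Of the 23 lipocalin genes outside the Mup family, all had a row, 0 passed the adjusted threshold of limma, and 2 had an unadjusted p under 0.05, both higher in Pfn2-/- liver, against 2.84% of all rows. They were Lcn2 (1.11, SE 0.46) and Lcn12 (0.31, SE 0.14). Obp2a, of the odorant-binding proteins, differed by 1.13 (SE 0.52), with 1 high Pfn2-/- array at 7.14 against 4.67 and 5.46 in the others and 4.08 to 5.05 in wild type. Orm2 differed by 1.62 (SE 0.76), and without Pfn2-/- replicate 2 it passed (2.76, adjusted p = 0.0207). Other lipocalins that liver secretes into plasma had intervals that included 0. Rbp4, the retinol carrier of plasma, differed by 0.03 (SE 0.12), Apom, an apolipoprotein that carries sphingosine phosphate, by -0.10 (SE 0.12), and Ambp, the precursor of a plasma lipocalin and a protease inhibitor, by 0.09 (SE 0.12). The median over the 23 genes was 0.14.

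The genes of the growth hormone axis and other regulators of Mup transcription were measured next. Of 32 listed genes 29 had a row of their own, 0 passed the adjusted threshold of limma, and at an unadjusted p under 0.05 there were 0 higher and 2 lower in Pfn2-/- liver, where 2.84% of all rows were higher and 2.44% lower. Whether a count of 2 in 29 differs from that share was not tested. The groups were apart in 1 gene with higher and 3 with lower values, against 5.19% and 4.52% of all rows. The median difference was -0.04. The growth hormone receptor gene Ghr read 8.99, 9.13 and 9.24 in wild type and 9.40, 9.46 and 9.33 in Pfn2-/- liver. Its groups did not overlap, and the difference was 0.28 (SE 0.12, adjusted p = 0.934). The genes of the kinase and the transcription factors below it had intervals that included 0, with Jak2 at 0.05 (SE 0.17), Stat5b at 0.27 (SE 0.19) and Stat5a at 0.05 (SE 0.16).

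Of the targets and inhibitors of the pathway, Socs2, a feedback inhibitor that growth hormone induces, read 8.30, 8.26 and 7.08 in wild type and 7.38, 5.75 and 7.54 in Pfn2-/- liver, a difference of -0.99 (SE 0.47, adjusted p = 0.934). Its groups overlapped and Pfn2-/- replicate 2 was far below the rest. Cish, another such inhibitor, differed by -0.57 (SE 0.36). Igf1, the main hormone made by liver under growth hormone, read 10.51, 10.54 and 10.59 in wild type and 10.35, 10.43 and 10.39 in Pfn2-/- liver. The groups were apart by a small step of -0.16 (SE 0.12, adjusted p = 0.958). Igfals, its carrier subunit, differed by -0.04 (SE 0.17).

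Among transcription factors tied to the sex pattern of liver, Bcl6, a repressor that is higher in males, read 6.74, 5.05 and 7.45 in wild type and 6.99, 7.51 and 6.97 in Pfn2-/- liver. Wild-type replicate 2 was the low array here as well, and the difference was 0.74 (SE 0.49). Cux2, which is higher in females, differed by -0.28 (SE 0.15), and Onecut1, the gene of HNF6, by -0.26 (SE 0.19). Onecut1 was highest in wild-type replicate 2, at 9.74 against 8.94 to 9.16 in the other arrays. Zhx2 and Zhx3, zinc finger and homeobox factors of which Zhx2 is known to raise Mup expression, differed by 0.06 (SE 0.14) and 0.04 (SE 0.17).

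The hormone receptors that Mup transcription depends on had intervals that included 0, with the glucocorticoid receptor gene Nr3c1 at 0.10 (SE 0.12) and the thyroid hormone receptor gene Thrb at -0.12 (SE 0.13). The 2 lower genes were Esr1, the estrogen receptor alpha gene, at 7.85, 7.50 and 7.30 against 6.64, 6.47 and 7.04 (-0.83, SE 0.19, adjusted p = 0.762), and Cebpb, a C/EBP factor, at 7.08, 6.96 and 7.19 against 6.75, 6.33 and 6.79 (-0.45, SE 0.15, adjusted p = 0.934). Neither gene overlapped between genotypes.

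**Figure D5:**
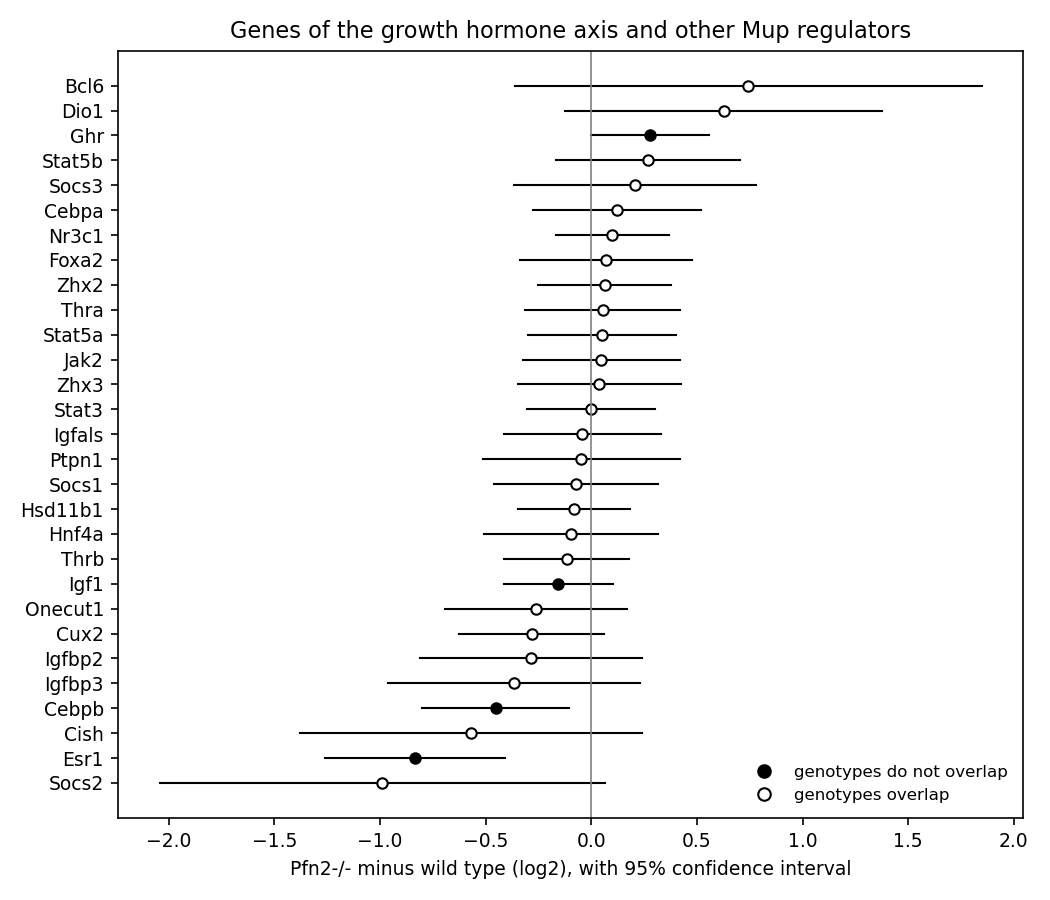
Difference between genotypes (Pfn2-/- minus wild type, log2) with the 95% confidence interval of limma for 29 genes of the growth hormone axis and other Mup regulators, 3 arrays per group. Filled circles are genes whose genotypes do not overlap (Ghr, Igf1, Cebpb and Esr1). The intervals of Esr1 and Cebpb lie below 0 before adjustment, and those of all others include 0.

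Other genes with higher expression in male liver were compared with the Mup rows, since the family shares this sex pattern. Of 21 measured genes outside the Mup family, 0 passed the adjusted threshold of limma. At an unadjusted p under 0.05 there were 14 with higher and 0 with lower values in Pfn2-/- liver, against 2.84% and 2.44% of all rows. The groups were apart, with Pfn2-/- higher, in 8 genes of this list and in 5.19% of all rows. The median difference was 0.64, where that of the Mup rows was 0.59. The 6 genes of smallest p were Cyp7b1, an oxysterol hydroxylase (1.18, SE 0.19), the transporter gene Slc22a28 (0.71, SE 0.13), Ugt2b38 (2.58, SE 0.52), the elongase gene Elovl3 (1.41, SE 0.29), Moxd1 (3.23, SE 0.83) and the fatty acid hydroxylase gene Cyp4a12b (0.64, SE 0.18). In wild type Ugt2b38 read 4.44, 3.05 and 3.11 and Moxd1 6.55, 3.36 and 3.26. Wild-type replicates 2 and 3 of both genes lay below the lower quartile of the arrays (3.51 to 3.57). The Moxd1 groups overlapped, with Pfn2-/- replicate 2 at 6.33. By array the centred mean of this list was -0.23, -0.71 and -0.29 in wild type and 0.57, 0.21 and 0.46 in Pfn2-/- liver. Replicate 2 was again the lowest of either genotype.

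Of 26 measured genes with higher expression in female liver, 0 passed. At an unadjusted p under 0.05 there were 10 with lower and 2 with higher values in Pfn2-/- liver, against 2.44% and 2.84% of all rows. The groups were apart in 8 genes with lower and 4 with higher values, against 4.52% and 5.19% of all rows. The median difference was -0.28. The 4 of smallest p were Acot3 (-1.51, SE 0.19, adjusted p = 0.156), Nipal1 (-2.69, SE 0.47), Fmo2 (-1.17, SE 0.26) and Fmo4 (-0.93, SE 0.21), all with groups apart. Both sex lists were drawn up with earlier results of these arrays known, and their direction is therefore no independent evidence on the Mup rows.

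The genes whose 6 values ran closest to a Mup row were sought for the 4 rows that spanned 1 or more on the log2 scale, by the root mean square difference of centred values over the 6 arrays. Closest to Mup21 was Cyp4a12b, at a difference of 0.10, followed by Slc6a4, Shisal2b, Ly6g6g and Aadat at 0.13 to 0.16. Closest to the Mup10-set row was Tjp3, a tight junction gene, at 0.06, followed by Gm13149, Sox9, Fitm1 and Pnkd at 0.09 to 0.11. Mup6 ran closest to Slc35d2, at 0.10, and then to Gsdma3, 1110028F11Rik, Slc6a16 and Slco1b2 at 0.11 to 0.12. The Mup9-set row had no neighbour as near, with Bhmt, a methyltransferase gene of methionine metabolism, at 0.20 and Cidea, 2010106E10Rik, Nrp1 and Vnn1 at 0.21 to 0.24. These genes were chosen for their pattern, and no test is given.

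The genes beside the cluster were measured as well. Of the nearest 10 measured genes on each side in the reference gene order, 0 of 20 passed the adjusted threshold of limma. At an unadjusted p under 0.05 there was 1 with a higher and 0 with a lower value, against 2.84% and 2.44% of all rows. Differences ran from -0.19 to 0.37 with a median of 0.05. The 1 gene was Slc31a2, a copper transporter gene, at 6.58, 6.54 and 6.57 in wild type and 6.82, 6.96 and 7.02 in Pfn2-/- liver (0.37, SE 0.12, adjusted p = 0.906). Next in p was E130308A19Rik (0.28, SE 0.15).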

How the data were processed

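RMA and limma are named in the submitters' processing notes. Neither versions nor probe set level nor build were given in the sources used here. Values were deposited by the authors on the log2 scale after RMA, rounded to 2 decimals. RMA equalises arrays by quantiles, which removes shifts shared by all genes. Apart from that step, differences of dim rows can be compressed in array values. Arrays have no read depth, and their number limits the precision.

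Gene names came from GEO's platform annotation. All 12 Mup gene IDs matched the reference table of GRCm38.p6 with the same symbol. Matching used IDs because 17 of 22 numbered Mup symbols are also a synonym of another one. All 34390 rows (23521 with 1 symbol, 1814 with several, 9055 unnamed) were fitted with limma 3.58.1 in R 4.3.3 (genotype as the sole term, lmFit and eBayes without trend, two-sided, Benjamini-Hochberg over all rows), so that shared Mup rows were tested too. A listed gene was represented by its 1-symbol row of highest mean. The fit was checked on simulated data. Named genes were all Mup rows, a fixed set of regulators with those at an unadjusted p under 0.05, the 6 male-higher, 4 female-higher and 4 lipocalin genes of smallest p with Rbp4, Apom and Ambp, the 5 most alike genes per Mup row and 2 neighbours. Genes given beside a result (Saa2, Hp, the named cholangiocyte markers and the check genes) were added after their values were seen. The members and lists were chosen with earlier results of these data known. Other lists held cell type markers. Those of stellate cells (1 of 7 genes at an unadjusted p under 0.05), red cells (0 of 3), fat cells (0 of 5), pancreas (0 of 4) and salivary and lacrimal glands (1 of 7) had 0 genes past the adjusted threshold. Promoter windows were aligned pairwise with Biopython 1.88, without a penalty for end gaps. The alternatives were 3 other normalizations, filters on dim rows, other choices of rows, a trended or robust eBayes, weighted arrays, a block for the replicate number, and leaving out 1 array at a time. Neither labels nor table name a scan date or batch.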

Additional observations from a re-analysis of the deposited data

How the results depend on the processing

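Over the 17 alternatives, 0 Mup rows and 0 regulator genes passed the adjusted threshold of limma in any. The Mup9-set row ranged from 0.73 to 1.35, the Mup10-set row from 0.39 to 0.75, Mup21 from 0.51 to 0.83, Mup6 from 0.48 to 0.78, Mup20 from 0.09 to 0.25 and Mup5 from -0.54 to -0.11, all with unchanged sign where the row was tested. Mup3 turned to -0.007 with cyclic loess and to -0.033 without wild-type replicate 2, and ranged from -0.03 to 0.12 when arrays were left out. The median over Mup rows was 0.17 with 1 row per gene, which drops both shared rows, and 0.39 to 0.70 when arrays were left out. The filters on dim rows removed Mup5 and Mup6.

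The replicate number goes with age in both genotypes, but no label ties same-numbered animals to a litter or day, and their deviations from the group means correlated at -0.072, 0.117 and 0.007 for numbers 1, 2 and 3, so they were not taken as pairs. In the fit with a replicate block, 3 rows of the table passed in place of 0, those of Slc16a5, Cyp17a1 and Ugt2b38, so 1 gene each of the female-higher and male-higher lists. In that fit limma's adjusted p was 0.643 for Mup21 and the Mup9-set row, 0.644 for the Mup10-set row and 0.898 for Mup5. Leaving out arrays gave 0 to 3 rows past the threshold (Mme, Orm2 and Saa2 without Pfn2-/- replicate 2, Arrdc3 without Pfn2-/- replicate 3), and 0 to 1 lipocalin genes. The sex lists had 0 genes past it in each of those fits.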

Other observations

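A row annotated to the pseudogene Mup-ps12, which the rule on numbered Mup symbols leaves out, was chosen after its values were seen. It read 5.40, 4.60 and 5.73 in wild type and 7.17, 5.82 and 6.71 in Pfn2-/- liver. The groups did not overlap, and the difference of 1.32 (SE 0.36, adjusted p = 0.844 in limma over all rows) was larger than that of any numbered Mup row in the main comparison. Replicate 2 was the lowest array of either genotype, as in most Mup rows. Which Mup transcripts reach its probes was not tested.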
